A study of Homo sapiens with 9 samples.

Results

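The genes described here are 8 members of the gap junction and pannexin channel families, namely the connexins GJA1, GJA3, GJB1, GJB2, GJB5 and GJC1 and the pannexins PANX1 and PANX2. They were selected by gene symbol, with their values on these arrays known, from 17687 genes with a symbol. Their own levels are therefore given as a description, without a test. Each gene was represented by 1 row of the deposited table. RNA came from AsPC-1, a long-established line of human pancreatic adenocarcinoma cells, in which STOML2, the gene of the mitochondrial inner membrane protein stomatin-like protein 2 (SLP-2), was targeted by RNA interference. The sh1 group carried a pBAsi-hU6 NEO plasmid for shRNA-1 of SLP-2, the sh2 group the same plasmid type for shRNA-2, and the control group the blank plasmid. All groups went through 3 weeks of Geneticin and each was grown from 1 picked colony, so every group, the control included, is a single clone. A difference between groups therefore cannot be told apart from a difference between clones. Each group had 3 arrays, and nothing in the labels says that they came from separate cultures, so p-values reflect the spread between arrays alone, and that spread may be technical.

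Values are log2 signals of 1-colour arrays, and a difference of 1 is 2-fold. Array medians lay between 6.57 and 6.65, and arrays correlated at r = 0.994 to 0.996 across rows within groups and at 0.982 to 0.988 between them. Detection calls were not used here, and the lower quartile of row means, 4.21, was taken as a guide to signals near background. The number of arrays limits the precision. STOML2 had 8.36, 8.42 and 8.18 in sh1 and 7.85, 7.99 and 7.35 in sh2, against 13.70, 13.66 and 13.65 in the control (limma, adjusted p = 2.31e-09 for sh1 and 1.63e-09 for sh2). Of the 8 markers of pancreatic epithelium, 8 lay above the lower quartile in every group, and they differed in direction. Marker sums were formed on the linear scale and returned to log2, so the brightest genes lead them and dimmer genes hardly move them. The summed signal of the epithelial markers lay between 17.62 and 17.73 in sh1 and between 17.67 and 17.79 in sh2, against 17.28 to 17.40 in the control. In sh1, sh2 and the control, KRT18 was at 14.59, 14.64 and 13.38 and CLDN4 at 14.11, 13.88 and 12.03. In the same order KRT7 was at 9.19, 9.64 and 9.41 and MUC1 at 9.06, 9.51 and 9.04. The keratin gene KRT8 was at 16.91 ± 0.06 in sh1, 16.90 ± 0.06 in sh2 and 16.20 ± 0.09 in the control (SD, n = 3). Another keratin gene, KRT19, was at 14.50 ± 0.32 in sh1, 15.62 ± 0.08 in sh2 and 16.19 ± 0.04 in the control. CDH1, the gene of E-cadherin, was at 10.74 ± 0.22 in sh1, 8.19 ± 0.21 in sh2 and 8.71 ± 0.13 in the control. The epithelial adhesion gene EPCAM differed between the lines, at 13.88 ± 0.09 in sh1, 9.68 ± 0.19 in sh2 and 8.94 ± 0.15 in the control. The summed signal of 5 mesenchymal markers lay between 15.63 and 15.80 in sh1 and between 16.36 and 16.58 in sh2, against 16.53 to 16.59 in the control. Among them CDH2, the gene of N-cadherin, was at 6.81 ± 0.33 in sh1 and 5.84 ± 0.21 in sh2, against 11.92 ± 0.07 in the control, a gap wider than that of any connexin described here. VIM, the gene of vimentin, was at 15.68 ± 0.09 in sh1, 16.40 ± 0.12 in sh2 and 16.45 ± 0.04 in the control, FN1, the gene of fibronectin, was near the lower quartile in all groups (4.22, 4.02 and 4.52), and SNAI2 and ZEB1 are described with the transcription factors. The summed signal of 5 fibroblast markers lay between 9.26 and 9.88 in sh1 and between 9.28 and 9.64 in sh2, against 11.08 to 11.33 in the control. That difference came with COL1A1 (6.65, 6.36 and 9.84 in sh1, sh2 and the control) and COL1A2 (9.18, 9.20 and 10.36), while the defining markers LUM (3.31, 3.34 and 3.22) and DCN (4.16, 4.41 and 4.37) lay near or below the lower quartile, and PDGFRB lay above it in all groups (5.04, 4.65 and 4.95). The part of these markers in the results below was not tested.

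Connexins assemble as hexamers into hemichannels, and hemichannels of adjoining cells dock to form gap junctions, through which ions, second messengers and small metabolites pass from cell to cell. GJA1 encodes connexin 43, the most widely expressed family member, GJB2 encodes connexin 26 and GJB1 connexin 32, both typical of epithelia, and GJC1 encodes connexin 45. Connexin 32 is a connexin known from the exocrine pancreas, where acinar cells are extensively coupled. Pannexins are unrelated to connexins in sequence but similar in topology, and they work mainly as single-membrane channels that release ATP to purinergic receptors on nearby cells.

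The promoter windows of the 3 members with the widest range of group means are shown first. These ranges were 3.82 for GJA1, 2.75 for GJB2 and 0.62 for PANX1. The RefSeq table of GRCh38.p14 held a window, from 250 bases before to 50 bases after the gene start, for 5 of the 8 genes. GJB5, GJC1 and PANX2 are named only. Letters in capitals mark matches, on either strand, to the AP-1 motif TGANTCA, the GC box GGGCGG, the SNAI-type E-box CAGGTG or the TATA box TATAAA. The windows are chr6:121435396-121435695 on the plus strand for GJA1, chr13:20192889-20193188 on the minus strand for GJB2 and chr11:94128591-94128890 on the plus strand for PANX1.
GJA1: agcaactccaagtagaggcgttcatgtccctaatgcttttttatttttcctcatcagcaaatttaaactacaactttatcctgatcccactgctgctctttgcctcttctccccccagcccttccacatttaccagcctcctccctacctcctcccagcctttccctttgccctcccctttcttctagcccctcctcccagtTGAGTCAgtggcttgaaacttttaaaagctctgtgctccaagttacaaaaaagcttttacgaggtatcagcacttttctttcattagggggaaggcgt
GJB2: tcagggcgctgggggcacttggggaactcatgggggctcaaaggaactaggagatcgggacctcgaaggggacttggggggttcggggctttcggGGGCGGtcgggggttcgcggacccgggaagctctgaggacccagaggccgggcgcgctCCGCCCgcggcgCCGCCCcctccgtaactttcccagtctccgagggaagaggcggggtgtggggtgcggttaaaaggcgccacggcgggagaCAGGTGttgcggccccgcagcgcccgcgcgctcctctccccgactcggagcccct
PANX1: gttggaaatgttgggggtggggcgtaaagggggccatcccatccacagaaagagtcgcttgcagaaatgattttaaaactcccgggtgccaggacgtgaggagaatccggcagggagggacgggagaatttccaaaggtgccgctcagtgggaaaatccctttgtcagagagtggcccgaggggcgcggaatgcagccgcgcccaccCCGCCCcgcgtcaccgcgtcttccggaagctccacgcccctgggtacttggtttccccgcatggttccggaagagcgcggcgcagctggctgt
The GJA1 window held 1 AP-1 match, which begins 48 bases before the start and overlaps a general E-box (CANNTG), and no GC box. AP-1 matches were present in 7.71% of the 35116 promoter windows in the table, and in none of the GJB2, PANX1, GJA3 and GJB1 windows. GJB2 held 3 GC boxes and 1 SNAI-type E-box, which begins 5 bases before the start. PANX1 held 1 GC box. The GJA3 window held 3 GC boxes and 1 SNAI-type E-box, and the GJB1 window 1 SNAI-type E-box and no GC box. GC boxes occurred in 45.0% of all windows, SNAI-type E-boxes in 20.6%, general E-boxes, which include them, in 68.7%, and the TATA box, absent from all 5 windows, in 11.5%. The GC content was 47.0% for GJA1, 71.7% for GJB2, 62.3% for PANX1, 74.7% for GJA3 and 56.0% for GJB1, against a median of 58.7% over all windows. These matches describe letters only, and no factor binding was measured.

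GJA1 (connexin 43) had the largest differences among the 8 genes and was higher in both shRNA lines by nearly the same amount. Its log2 signal was 12.62, 12.84 and 12.61 on the sh1 arrays and 12.65, 12.69 and 12.81 on the sh2 arrays, against 8.99, 8.58 and 9.13 in the control. The 3 arrays of each line lay above every control array, the closest pairs being 3.48 apart for sh1 and 3.52 apart for sh2, whereas the arrays of the lines overlapped each other. The difference was 3.79 ± 0.16 (model SE) in sh1 and 3.82 ± 0.16 in sh2, which is 13.8-fold and 14.1-fold on the linear scale. Differences larger in size were found in 0.182% of all rows in each comparison. Between the lines GJA1 differed by 0.03 ± 0.16 (sh2 minus sh1). The control signal of 8.90 ± 0.29 (SD, n = 3) lay well above the lower quartile, so both sides of this difference were measured above the background guide. RefSeq lists a pseudogene, GJA1P1, on chromosome 5, and whether the GJA1 probes separate the 2 loci is not given in the sources used here. Both comparisons share the control arrays.

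**Figure D1:**
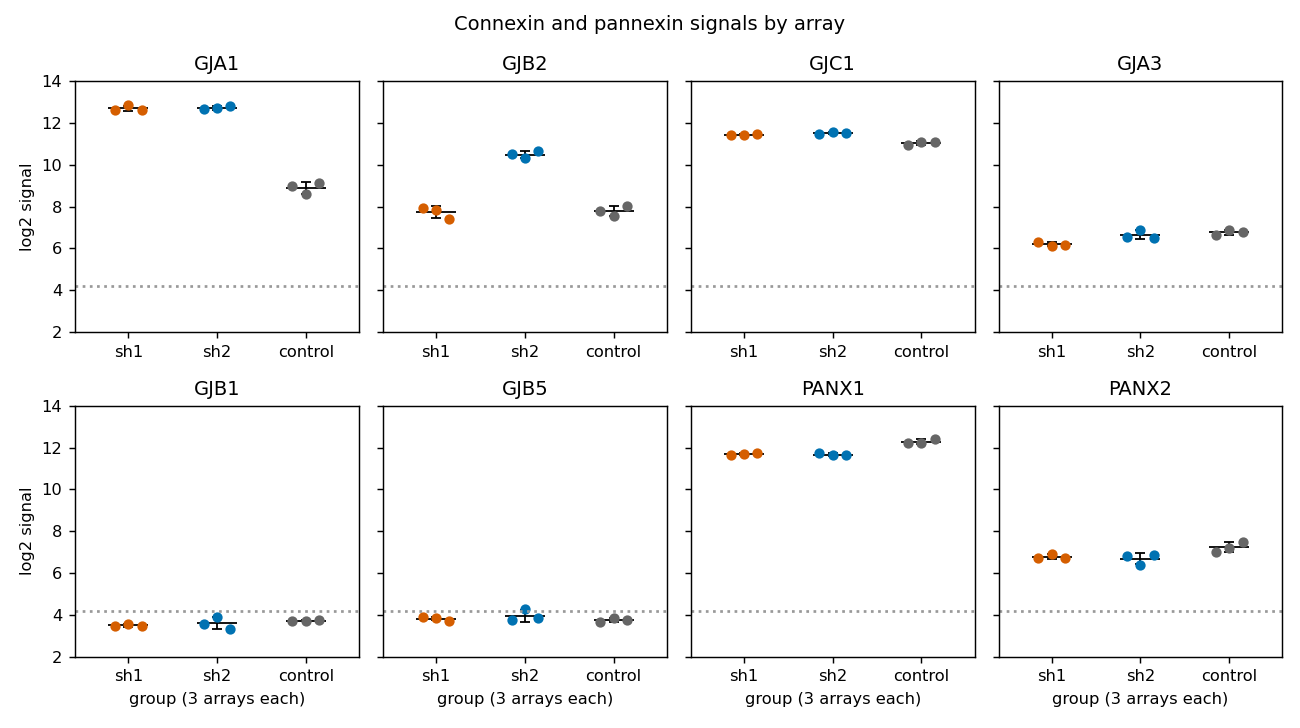
Log2 signal (vertical axis) of the 8 genes on each array of sh1, sh2 and the control (horizontal axis), with group means as horizontal lines and SD as error bars, and the lower quartile of the row means (4.21) dotted. GJA1 lies near 12.7 in both lines and at 8.90 in the control, GJB2 is high in sh2 alone (10.48), and GJB1 and GJB5 have group means under the dotted line in all 3 groups.

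GJB2 (connexin 26) was higher in sh2 and not in sh1. Its signal was 7.93, 7.86 and 7.41 in sh1 and 10.49, 10.32 and 10.64 in sh2, against 7.77, 7.57 and 8.03 in the control. All sh2 arrays lay above all arrays of the other groups, and the sh1 and control arrays overlapped. The difference from the control was -0.06 ± 0.17 (SE) in sh1 and 2.69 ± 0.17 in sh2 (6.47-fold), and sh2 exceeded sh1 by 2.75 ± 0.17 (6.73-fold). Thus sh2 ranked first, and the order of sh1 and the control was not resolved by their spread. Group means were 7.73 ± 0.28 in sh1, 10.48 ± 0.16 in sh2 and 7.79 ± 0.23 in the control (SD, n = 3 each).

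GJB2 lies between GJA3 and GJB6 in the gene order of chromosome 13, so its family neighbours could be set beside it. GJA3, which encodes a connexin known from lens fibres, had 6.31, 6.12 and 6.16 in sh1 and 6.57, 6.90 and 6.50 in sh2, against 6.65, 6.87 and 6.79 in the control. The sh1 arrays were below all others, and the sh2 and control arrays overlapped. GJA3 differed from the control by -0.57 ± 0.14 (SE) in sh1 and by -0.11 ± 0.14 in sh2, and sh2 exceeded sh1 by 0.46 ± 0.14. GJB6, which encodes connexin 30 and is not among the 8 genes, had 4.6, 4.61 and 3.79 in sh1 and 6.19, 4.95 and 4.80 in sh2, against 4.55, 4.48 and 4.21 in the control. All 3 sh2 arrays of GJB6 were above the control arrays, with a wide spread led by sh2 array 1. Its difference of 0.90 ± 0.33 (SE) in sh2 did not pass (limma, adjusted p = 0.0947), nor did that of 0.98 ± 0.33 between sh2 and sh1 (adjusted p = 0.0871).

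GJC1 (connexin 45) was slightly higher in both lines, with little spread within groups. It had 11.44, 11.41 and 11.46 in sh1 and 11.46, 11.55 and 11.52 in sh2, against 10.95, 11.07 and 11.10 in the control. Arrays of both lines lay above those of the control, and the lowest sh2 array equalled the highest sh1 array. The differences were 0.40 ± 0.11 (SE) in sh1 and 0.47 ± 0.11 in sh2, which is 1.32-fold and 1.39-fold. Differences of GJC1 were exceeded in size by 26.8% of all rows in sh1 and by 19.3% in sh2.

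GJB1 (connexin 32) and GJB5, which encodes a connexin known from skin, had group means below the lower quartile in every group. GJB1 had 3.48, 3.57 and 3.46 in sh1 and 3.55, 3.91 and 3.34 in sh2, against 3.73, 3.72 and 3.74 in the control. Its sh1 arrays lay below the control arrays, by -0.23 ± 0.15 (SE) on average, and its sh2 arrays spread on both sides of them (-0.13 ± 0.15). GJB5 had 3.89, 3.83 and 3.73 in sh1 and 3.78, 4.30 and 3.83 in sh2, against 3.67, 3.83 and 3.75 in the control, and all groups overlapped. Its differences were 0.07 ± 0.15 in sh1 and 0.22 ± 0.15 in sh2, and sh2 array 2 was its only array above the lower quartile. At such signals a true difference between groups could be hidden by the background.

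PANX1 was lower in both lines by the same amount within error. This gene encodes the broadly expressed ATP-releasing pannexin. It had 11.65, 11.70 and 11.74 in sh1 and 11.72, 11.66 and 11.62 in sh2, against 12.23, 12.21 and 12.42 in the control. The arrays of each line were all below the control arrays, and those of the lines overlapped. The differences were -0.59 ± 0.12 (SE) in sh1 and -0.62 ± 0.12 in sh2, which leaves 0.664 and 0.651 of the control signal on the linear scale. PANX2, a pannexin best known from the nervous system and found on intracellular membranes, had 6.73, 6.92 and 6.70 in sh1 and 6.82, 6.40 and 6.85 in sh2, against 7.02, 7.22 and 7.47 in the control. Its arrays in both lines were likewise below those of the control, by -0.45 ± 0.16 in sh1 and -0.55 ± 0.16 in sh2, with a wider spread than PANX1.

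Across the 8 genes, arrays of sh1 and the control did not overlap for 6, with 2 higher and 4 lower, while 34.5% of all rows did not overlap in that comparison. For sh2 and the control it was 5 genes, with 3 higher and 2 lower, against 32.5% of all rows. For sh2 and sh1 it was 2 genes, both higher in sh2, against 27.1% of all rows. Nothing is read from these counts, because the genes were chosen with the same values known. For the same reason their limma calls are not counted. Over all 21448 rows, 18.8% passed in sh1, 16.3% in sh2 and 11.3% between sh2 and sh1 (limma, adjusted p under 0.05). By direction these shares were 9.76% higher and 9.0% lower in sh1, and 8.33% and 7.98% in sh2. Between the lines, 5.73% were higher and 5.57% lower in sh2. The median difference of the 8 genes was -0.14 in sh1, 0.05 in sh2 and 0.08 for sh2 minus sh1, and over all rows it was 0.02, 0.02 and -0.01. As a description of these arrays alone, the connexins GJA1 and GJC1 lay above the control in each line, and both pannexins lay below it.

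**Figure D2:**
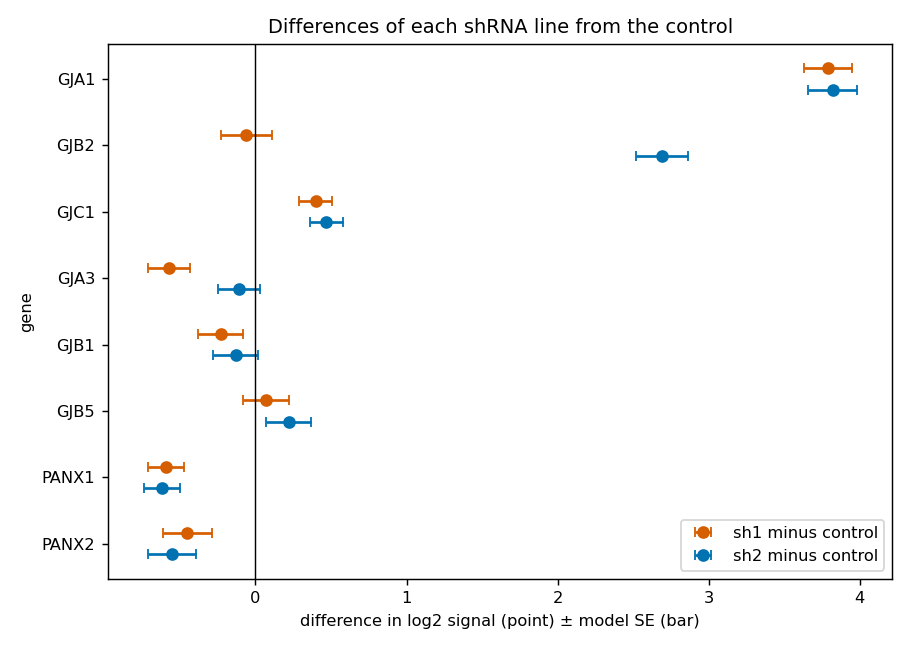
Difference in log2 signal from the control (horizontal axis) for each of the 8 genes (vertical axis), with sh1 above sh2 and model SE as bars. GJA1 stands near 3.8 in both lines, GJB2 at 2.69 in sh2 and -0.06 in sh1, and PANX1 and PANX2 lie left of 0 in both.

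The rest of the connexin and pannexin family was described for 10 further genes, namely GJA4, GJA5, GJA10, GJB6, GJB7, GJC3, GJD2, GJD3, GJD4 and PANX3. While 18.8% of all rows passed in sh1, 16.3% in sh2 and 11.3% between the lines, none of these 10 genes did (limma, adjusted p under 0.05). At an unadjusted p under 0.05 there were 0 in sh1, 1 in sh2 and 1 between the lines, in both cases GJB6. Of these genes, 5 had a mean signal under the lower quartile, and the median difference was 0.00 in sh1 and 0.06 in sh2.

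Genes that act on connexins and around pannexin channels were taken from 5 further lists. With the family list these made 98 measured genes, of which 28 passed in sh1 (10 higher, 18 lower) and 25 in sh2 (10 higher, 15 lower). That is 28.6% and 25.5% of them, beside 18.8% and 16.3% of all rows. Between sh2 and sh1, 18 passed (13 higher and 5 lower in sh2), or 18.4% beside 11.3%. All lists were chosen with earlier results of these data known. Nothing is therefore read from these shares, or from those of the single lists below, against all rows. The comparisons of sh1 and of sh2 share the control arrays. MAPK3, the kinase ERK1, was singled out after its values were seen. MAPK3 differed by -0.39 in sh1 (limma, adjusted p = 0.0479) and by 0.46 for sh2 (adjusted p = 0.0253), and these calls were lost in 12 and 4 of the 15 other fits (-0.46 to -0.31, adjusted p = 0.0501 to 0.182, and 0.40 to 0.45, adjusted p = 0.0661 to 0.0954). Between the lines MAPK3 differed by 0.86 (limma, sh2 minus sh1, adjusted p = 0.000837).

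Among partners that anchor, deliver or degrade connexins, 3 of 16 were called higher and 2 lower in sh1, against 4 higher and 3 lower in the sh2 line, with medians of 0.03 and 0.06. The shares called were 31.2% in sh1 and 43.8% in sh2, beside 18.8% and 16.3% of all rows. TJP1, which encodes ZO-1, the scaffold that binds the tail of connexin 43, had 14.02, 13.97 and 13.88 in sh1 and 13.04, 13.21 and 13.08 in sh2, against 12.73, 12.90 and 12.62 in the control. It rose by 1.21 ± 0.12 (SE) in sh1 (limma, adjusted p = 3.95e-05) and differed by 0.36 ± 0.12 in sh2 (adjusted p = 0.0751), and its level in sh2 was below that in sh1 by a difference of -0.85 (adjusted p = 0.000922). NEDD4, a ubiquitin ligase that acts on connexin 43, rose in both lines, by 0.69 in sh1 (adjusted p = 0.00813) and by 0.97 for sh2 (adjusted p = 0.00107). SQSTM1, the autophagy receptor p62, changed by -0.57 in sh1 (adjusted p = 0.00602) and -0.88 for sh2 (adjusted p = 0.000414). DBN1, the actin-binding protein drebrin, fell by 0.84 in sh2 (adjusted p = 0.00274), while its difference in sh1 was -0.06 (adjusted p = 0.839).

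Among kinases and phosphatases that act on connexins, the sh1 line had 1 of 19 higher and 6 lower, and the sh2 line 3 higher and 5 lower, with medians of -0.07 and 0.00. Calls made up 36.8% of this list in sh1 and 42.1% in sh2, beside 18.8% and 16.3% of all rows. PRKACB, a catalytic subunit of protein kinase A, rose by 0.47 in sh1 (limma, adjusted p = 0.0173) and by 1.43 for sh2 (adjusted p = 9.58e-06), and was higher in sh2 than in sh1 by 0.96 (adjusted p = 0.00027). PRKCA, protein kinase C alpha, fell by 1.00 in sh1 (adjusted p = 0.00158) and differed by -0.36 in sh2 (adjusted p = 0.202). MAPK7, the kinase ERK5, changed by -0.74 in sh1 (adjusted p = 0.0155) and -0.82 for sh2 (adjusted p = 0.00996). PPP2CA, the catalytic subunit of protein phosphatase 2A, fell by 0.65 in sh2 (adjusted p = 0.00273) and differed by -0.33 in sh1 (adjusted p = 0.0778). The sh1 calls of PRKACB and MAPK7 were lost without some single arrays. For PRKACB these were control array 1, control array 2 or sh1 array 3 (0.42 to 0.46, adjusted p = 0.054 to 0.0738). For MAPK7 they were control array 1, control array 3 or sh1 array 3 (-0.69 to -0.57, adjusted p = 0.0576 to 0.0631).

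Pannexin channels release ATP, which ecto-enzymes break down to adenosine, and genes of this route were taken as a list. Of 25 measured genes, the sh1 line had 3 higher and 3 lower (24% passed, beside 18.8% of all rows), and the sh2 line 2 higher and 3 lower (20%, beside 16.3%), with medians of 0.00 and -0.01. ENPP1, an ecto-enzyme that hydrolyses ATP, had 7.82, 8.0 and 8.21 in sh1 and 8.76, 8.76 and 9.0 in sh2, against 9.79, 9.96 and 10.05 in the control. Its change was -1.92 in sh1 (limma, adjusted p = 3.13e-06) and -1.09 for sh2 (adjusted p = 0.00029), and its level was higher in sh2 than in sh1 by 0.83 (adjusted p = 0.00273). NT5E (CD73), which makes adenosine from AMP, went the other way, with 15.58, 15.20 and 15.24 in sh1 and 16.30, 16.28 and 16.56 in sh2, against 14.73, 14.86 and 14.81 in the control. NT5E rose by 0.54 in sh1 (adjusted p = 0.0202) and by 1.58 for sh2 (adjusted p = 1.74e-05), and the sh1 call was lost without control array 1, control array 3 or sh1 array 1 (0.42 to 0.55, adjusted p = 0.0531 to 0.0826). SLC29A1, the nucleoside transporter ENT1, which takes adenosine up, changed by -1.02 in sh1 (adjusted p = 0.000133) and -0.75 for sh2 (adjusted p = 0.0014). P2RX2, an ATP-gated channel, rose by 0.92 in sh1 (adjusted p = 0.00937) and differed by 0.39 in sh2 (adjusted p = 0.271). Its signals were low, with means of 5.77 in sh1, 5.24 in sh2 and 4.85 in the control. These lay between the lower quartile of row means, 4.21, and their median, 6.61.

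Other large-pore channels are formed by CALHM and LRRC8 proteins. Of 11 such genes, 1 was higher and 1 lower in sh1 (18.2% passed, beside 18.8% of all rows), and none passed in sh2 (limma, 3 at an unadjusted p under 0.05), with medians of -0.14 and -0.09. CALHM2, a calcium homeostasis modulator channel, fell by 1.06 in sh1 (adjusted p = 0.00436) and differed by -0.49 in sh2 (adjusted p = 0.154). LRRC8B, a subunit of volume-regulated anion channels, differed by 0.37 in sh1 (adjusted p = 0.0416), a call that was lost in 12 of the 15 other fits tried (0.34 to 0.39, adjusted p = 0.0514 to 0.117), and by 0.34 in sh2 (adjusted p = 0.0657).

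Of 17 measured transcription factors described as regulators of connexin genes, 2 passed as higher and 6 as lower in sh1, and 1 as higher and 4 as lower in sh2, with medians of -0.16 and -0.08. That was 47.1% of them in sh1 and 29.4% in sh2, beside 18.8% and 16.3% of all rows. SNAI2, a repressor that binds the SNAI-type E-box, had 4.82, 4.33 and 4.32 in sh1 and 4.77, 4.75 and 4.04 in sh2, against 7.42, 7.18 and 7.23 in the control. The change of SNAI2 was -2.79 in sh1 (limma, adjusted p = 3.23e-06) and -2.76 for sh2 (adjusted p = 4.01e-06), to signals near the lower quartile. JUN, a subunit of AP-1, had 7.54, 9.15 and 7.64 in sh1 and 7.94, 7.12 and 7.36 in sh2, against 9.51, 9.24 and 9.51 in the control, so that sh1 array 2 stood close to the control. The change of JUN was -1.31 in sh1 (adjusted p = 0.0257) and -1.95 for sh2 (adjusted p = 0.00326). The sh1 call was lost without sh1 array 1, sh1 array 3 or any 1 control array (-1.40 to -1.02, adjusted p = 0.0511 to 0.0995). ZEB1, an E-box repressor, fell by 1.63 in sh1 (adjusted p = 3.65e-06) and differed by -0.09 in sh2 (adjusted p = 0.722). MYC fell by 1.18 in sh1 (adjusted p = 0.000696) and differed by -0.44 in sh2 (adjusted p = 0.127).

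**Figure D3:**
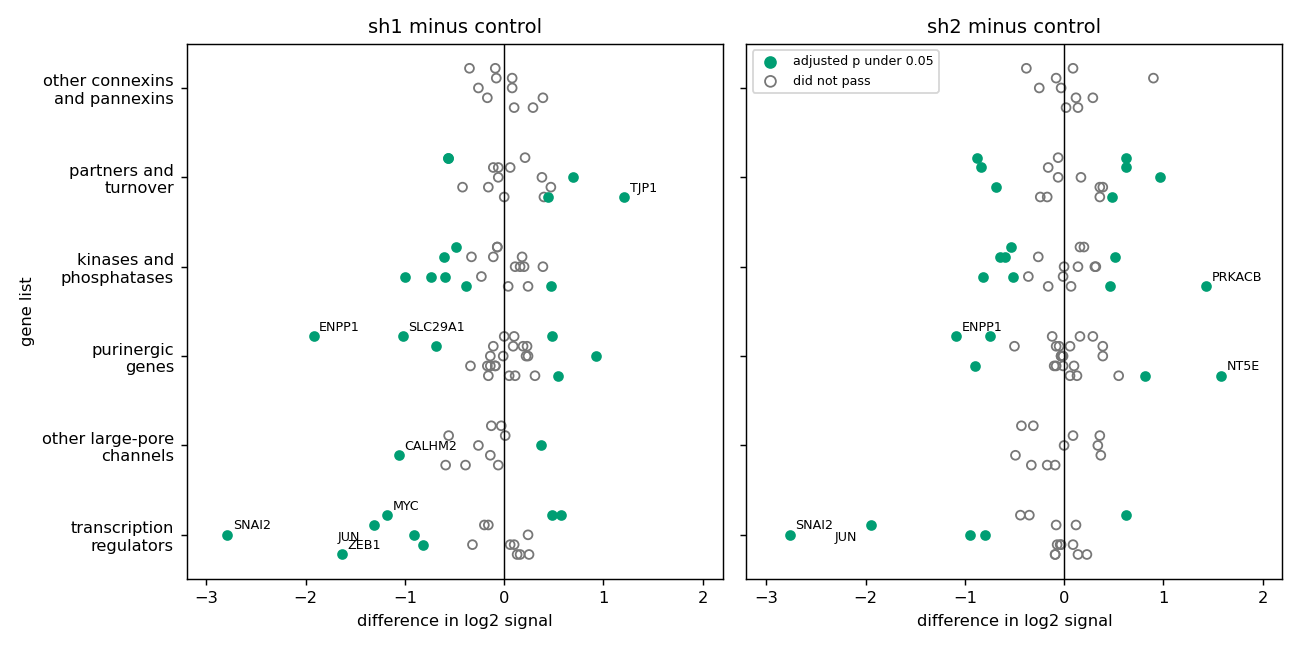
Difference in log2 signal from the control (horizontal axis) for the 98 listed genes, by list (vertical axis), in sh1 (left) and sh2 (right), with filled points for an adjusted p under 0.05 and open points for the rest. Points of the other connexins and pannexins are all open, and SNAI2 is farthest to the left in both panels.

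The position of each gene was compared with the levels of its neighbours, because whole stretches of a chromosome can differ between clones. Around GJA1 on chromosome 6, the 40 nearest genes with a mean signal above the median of all rows had a median difference of -0.32 in sh1, where 30 were lower and 10 higher, and of -0.16 in sh2, where 26 were lower and 14 higher. GJA1 had the largest difference in size of its neighbourhood in both lines, and minus the neighbour median it was 4.11 in sh1 and 3.98 in sh2. Of the genes next to it, TBC1D32 differed by -0.27 in sh1 (limma, adjusted p = 0.314) and -0.09 for sh2 (adjusted p = 0.788), and SERINC1 changed by -0.85 (adjusted p = 0.000507) and by -0.55 (adjusted p = 0.0106). Around GJB2 the median was 0.01 in sh1 and 0.15 in sh2, and in sh2 GJB2 again had the largest difference of its neighbourhood (2.54 minus the neighbour median). PANX1 on chromosome 11 was at -0.53 in sh1 and -0.78 in sh2 after its neighbour medians of -0.06 and 0.16. For GJC1 on chromosome 17, the median of the neighbours was 0.15 in sh1 and 0.06 in sh2, which left 0.25 and 0.41. For PANX2 on chromosome 22, the neighbour medians were 0.03 and 0.05, which left -0.48 and -0.60. By size of difference among its neighbours, PANX1 ranked 11 in sh1 and 8 in sh2, GJC1 11 and 6, and PANX2 11 and 5. Minus the neighbour median, GJA3 was at -0.58 in sh1 and -0.3 in sh2, GJB1 at -0.17 in both, and GJB5 at -0.03 and 0.19.

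**Figure D4:**
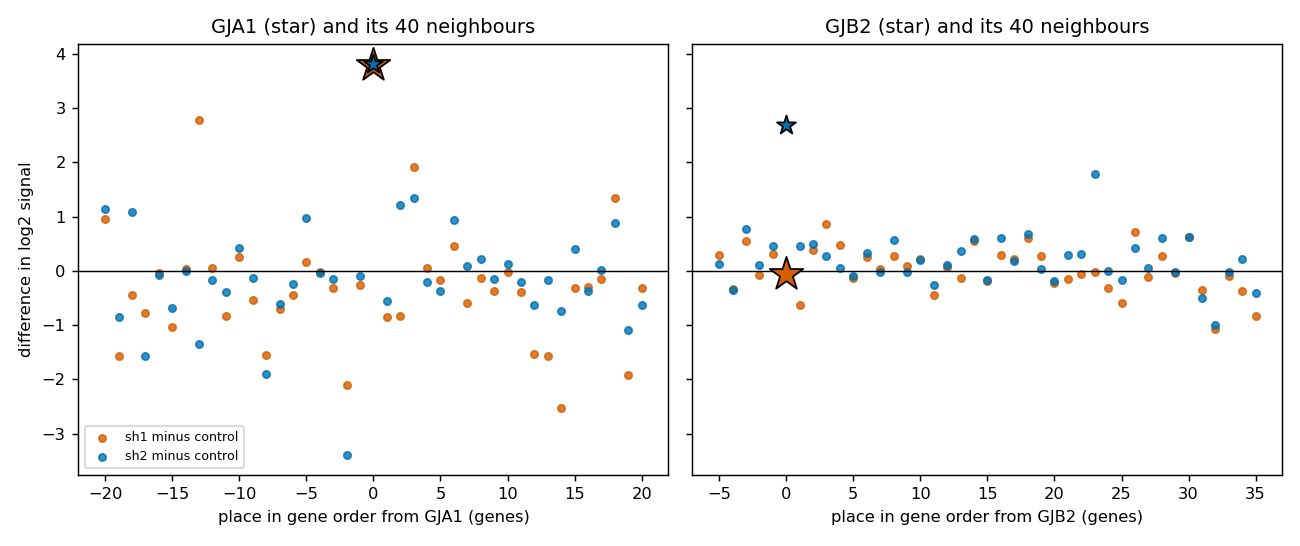
Difference in log2 signal from the control (vertical axis) for GJA1 (left) and GJB2 (right), drawn as stars at place 0, and for their 40 neighbours above the median signal in gene order (horizontal axis), in sh1 and sh2. The GJA1 stars of both lines coincide above every neighbour, and the sh2 star of GJB2 stands above its neighbours while the sh1 star lies at -0.06.

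The genes whose profiles lay closest to those of GJA1, GJB2 and PANX1 were found by the root mean square distance over the 9 arrays, with each row centred on its control mean and 17686 genes compared. For GJA1 these were SCG2, a granin of secretory vesicles (distance 0.476, differences of 3.43 in sh1 and 3.33 in sh2), EREG, a ligand of the EGF receptor (0.554, with 3.04 and 4.19), and OLR1, a receptor for oxidised lipoprotein (0.626, with 4.02 and 2.81). For GJB2 they were IL1RL1, the receptor for interleukin 33 (0.272, differences of 0.16 in sh1 and 2.72 in sh2), SPRY2, an inhibitor of receptor tyrosine kinase signalling (0.294, with 0.31 and 2.54), and SCN9A, a sodium channel (0.312, with 0.05 and 2.62). For PANX1 the nearest were SAYSD1 (0.0609, with -0.60 and -0.62), the transcription factor subunit NFYA (0.0720, with -0.58 and -0.55) and the complex I subunit NDUFB6 (0.0748, with -0.65 in both). All of these lie on other chromosomes than the gene they resemble except SPRY2, which like GJB2 is on chromosome 13. The distances are a description over arrays that share their clones.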

How the data were processed

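Total RNA (100 ng per sample) from 9 samples was labelled with biotin by the WT Plus kit for whole-transcript arrays. The deposited values span 2.03 to 18.57 with near-identical distributions and were therefore taken to be log2 signals. Per the submitters' processing notes the authors made them with Transcriptome Analysis Console. Its version, its settings and any genome build were not given in the sources used here. They were used as deposited. Of 21448 rows, 17709 carried 1 gene symbol in the platform annotation, which gave 17687 genes, with the row of highest mean standing for 20 genes with several rows. Differences were fitted with limma 3.58.1 in R 4.3.3, in 1 model over all 9 arrays (lmFit and eBayes), with Benjamini-Hochberg adjustment over all rows and calls at an adjusted p under 0.05. Errors are SD over 3 arrays or model SE.

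The 8 genes and all gene lists were chosen with earlier results of these data known. Named list genes are up to 4 per list, those with the largest difference in either line among members that passed in sh1 or sh2. Near a chromosome end, neighbours missing on the short side were taken from the other side, as for GJA3, GJB2 and PANX2. Arrays with the same number were not treated as pairs, since their deviations correlated at -0.0358 to 0.18 across rows and 2 of 9 pairs were over 0.1. The pairs of arrays numbered 1 correlated most, at 0.122 (sh1 and sh2), 0.0856 (sh1 and control) and 0.18 (sh2 and control). Alternatives covered scaling, a filter on dim rows, the prior, the arrays in the fit, the threshold, a block by array number, rows per gene, neighbour correction and leaving out each array.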

Additional observations from a re-analysis of the deposited data

Results flagged for a closer look

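Of the 18 genes named from the lists, 8 differed between the shRNA lines themselves (limma, sh2 minus sh1, adjusted p under 0.05). The 18 had been picked for a difference from the control in either line, so this count is not read against the share of all rows. Levels were higher in sh2 than in sh1 for 6 of them. ZEB1 differed by 1.54 ± 0.12 (SE), with 11.61 ± 0.01 in sh2 and 10.07 ± 0.17 in sh1 (SD, n = 3). NT5E differed by 1.04 ± 0.14, PRKACB by 0.96 ± 0.12 and ENPP1 by 0.83 ± 0.14. MYC differed by 0.74 ± 0.18 (adjusted p = 0.0204) and PRKCA by 0.64 ± 0.17 (adjusted p = 0.0325). The MYC call was lost without sh1 array 2, sh1 array 3 or sh2 array 1 (0.53 to 0.72, adjusted p = 0.0513 to 0.0704). The PRKCA call was lost without any of the same arrays and in a fit on the 6 arrays of both lines alone (0.46 to 0.68, adjusted p = 0.0676 to 0.111). Levels were lower in sh2 than in sh1 for TJP1, by a difference of -0.85 ± 0.12, and for DBN1, by -0.77 ± 0.15 (adjusted p = 0.00596).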

How the results depend on the processing

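The counts of rows and of listed genes that passed stayed within 1.5 times of their values under scaling, the prior, the filter on dim rows and the choice of arrays. A stricter threshold of 0.01 left 2425 rows in sh1, 1921 in sh2 and 1331 between the lines, and 17, 18 and 11 listed genes. With a change of at least 2-fold at 0.05 they were 1203, 970 and 756 rows, and 9, 5 and 3 listed genes. Fewer calls follow from the construction of both thresholds. Leaving out each array gave 3044 to 4047 rows in sh1, 2455 to 3587 in sh2 and 1803 to 2271 between the lines, and 20 to 27, 21 to 25 and 14 to 18 listed genes. With a block by array number (replicate block) 3996, 3432 and 2364 rows and 26, 27 and 21 listed genes passed, and 3 of 9 arrays correlated best with their own number in both other groups. Of the 24 differences between groups over the 8 genes, 13 had arrays that did not overlap, and 13 to 15 with each array left out. Over all rows, the shares without overlap were 34.5% for sh1 and 32.5% for sh2 against the control, and 27.1% between the lines. Nothing is read from the count over the 8 genes, which were chosen with these values known. GJA1 stayed between 3.63 and 3.90 in sh1 and between 3.66 and 3.93 in sh2, and GJB2 between 2.58 and 2.81 in sh2. Among the named list genes, signs turned when 1 array was left out for DBN1 in sh1 (-0.21 to 0.04), MAPK7 between the lines (-0.26 to 0.04) and SNAI2 between the lines (-0.10 to 0.27), none of which had passed. Among the 8 genes they turned for GJB2 in sh1 (-0.17 to 0.10) and, between the lines, for GJA1 (-0.02 to 0.10), GJB1 (-0.06 to 0.23), GJB5 (-0.01 to 0.25) and PANX2 (-0.17 to 0.05). The cause was not tested. Signals near background limit GJB1 and GJB5.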
